A study of Mus musculus with 6 samples.

Results

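Skin is protected from its own proteases by several families of inhibitor genes, and 63 of the 35275 genes listed for these libraries belong to 4 of them. They were taken by name: every gene whose symbol begins with Serpinb (clade B serpins), Stfa (stefins), Spink (Kazal-type inhibitors) or Wfdc (WAP four-disulfide core genes), together with Slpi. The mice were C57BL/6 animals, either lacking IL-33 (IL-33 KO, the knockout, 3 libraries) or wild type (WT, 3 libraries), and RNA came from the epithelial portion of the back skin. Both genotypes were painted on the back with 0.25% DNFB, a contact allergen, in acetone and olive oil, 3 times a week over 22 days. No unpainted skin was sequenced in the libraries used here, so every difference below is one of genotype within allergen-treated skin. The labels give neither age nor sex, nor how the IL-33 allele was made, and nothing in them ties the libraries to separate animals. The p-values below therefore weigh genotype against the spread among the libraries at hand, which may be technical.

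Clade B serpins are mostly intracellular inhibitors that trap a serine or cysteine protease by offering it a bait loop. Stefins are small cytoplasmic proteins that block papain-like cysteine proteases such as the cathepsins, while Kazal and WAP domain proteins are secreted and act on serine proteases, among them the kallikreins that shed the cornified layer and the elastase of neutrophils. IL-33 is an alarmin stored in the nuclei of barrier epithelium and released on damage, where it drives type 2 inflammation.

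Il33 itself was counted 21, 22 and 11 times in the IL-33 KO libraries and 3906, 3086 and 2817 times in the WT libraries, as labelled. Library totals ran from 20459574 to 24359612 counts. WT 3 stood nearer to the IL-33 KO libraries than to the other WT libraries: the chi-square per degree of freedom over genes was 100.1 between WT 3 and WT 1 and 89.6 between WT 3 and WT 2, against 33.2 to 53.9 between WT 3 and each IL-33 KO library. For the named inhibitors and the medians, the value without a library is therefore given where leaving it out turned the direction, moved the value by over 1.5 times or passed the test, for a few of them as a range in the closing section. Of 17 tested hair follicle markers, 17 were higher in IL-33 KO in direction and 14 showed no overlap between genotypes. Over all tested genes, 7.46% were higher in IL-33 KO without overlap. Of 10 granular keratinocyte markers, 9 were lower in direction. Krt14, a keratin of basal keratinocytes, was at 12700, 18200 and 19500 CPM in the knockout and 28800, 25600 and 15700 CPM in WT, beside Col1a1, a dermal fibroblast collagen, at 3840 to 4130 and 3520 to 6240 CPM, so the samples held dermal RNA as well. Fibroblast markers were lower in direction for 6 of 7 genes (summed 11900 to 13900 CPM in the knockout, 12600 to 22700 CPM in WT), macrophage markers for 7 of 9, mast cell markers for 7 of 8 and Langerhans and dendritic cell markers for 5 of 8. Skeletal muscle markers were higher for 5 of 5 (12.3 to 260 CPM against 9.12 to 9.48 CPM), adipocyte markers for 8 of 8 (667 to 909 CPM against 156 to 675 CPM) and T and NK cell markers for 8 of 8 (40.4 to 62.4 CPM against 21.4 to 48.3 CPM). No marker in these lists passed the test, and their part in the inhibitor values was not tested.

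The inhibitors as a group stood lower in IL-33 KO skin in direction, but none passed the test across all genes. Of the 63 genes, 12 had no count in any library, 27 (these 12 included) fell under the filter on low counts, and 36 were tested. Of the 36, 28 were lower and 8 higher in IL-33 KO, where 52.0% of all 15720 tested genes were lower. The median log2 fold change (IL-33 KO minus WT) was -0.57 over the 36, with a range of -1.74 to 0.99, beside a median of -0.01 over all tested genes. By edgeR's quasi-likelihood test with Benjamini-Hochberg adjustment over all tested genes, 0 of the 36 passed an adjusted p of 0.05, and 3 genes (0.0191%) passed among all those tested. The members' adjusted p ran from 0.187 to 0.933. At an unadjusted p of 0.05, 9 members were lower and 1 higher, where 4.15% of all tested genes were lower and 4.87% higher. These 10 became 17 without WT 3, 5 without WT 1, 6 without IL-33 KO 1 and 6 without WT 2. The share of all tested genes under this unadjusted p was not counted in those fits, so these counts have no background. At an adjusted p of 0.05, 24 genes passed over all without WT 3, and 2 without WT 1, without IL-33 KO 1 or without WT 2. DESeq2 passed 3 members: Serpinb10 (adjusted p = 0.000297), Serpinb3a (adjusted p = 0.00433) and Spink12 (adjusted p = 0.00506), against 206 genes (1.31%) over all.

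Added over all 63 genes, the inhibitors reached 3020, 3640 and 4430 FPKM in the IL-33 KO libraries and 8170, 6540 and 3430 FPKM in WT 1, WT 2 and WT 3. FPKM are counts scaled by gene length and library total, the scale on which different genes are compared here. The means were 3700 ± 711 FPKM in IL-33 KO and 6040 ± 2410 FPKM in WT (SD, n = 3 each), and the groups overlapped, because WT 3 lay below 2 of the IL-33 KO libraries. WT 1 was the highest of the 6 libraries for 17 of the 36 tested members and WT 2 for 10, while IL-33 KO 1 was the lowest for 17. Among the 28 members lower in IL-33 KO, WT 3 was at or below the highest IL-33 KO library for 18, WT 2 for 9 and WT 1 for 3. The median over the 36 was -0.76 without WT 3 and -0.24 without WT 1.

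**Figure D1:**
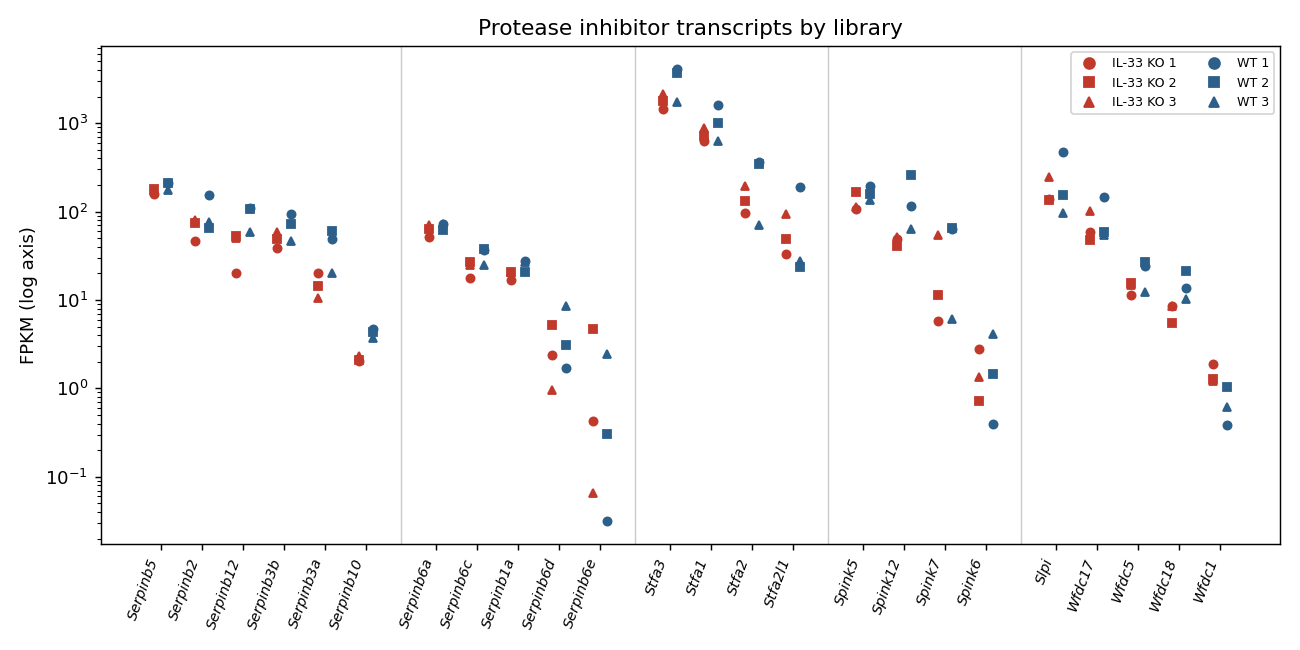
FPKM (log axis) of the 24 named inhibitors in each library, grouped by subfamily and ordered by mean level, with IL-33 KO in red and WT in blue and the replicate number given by the symbol. Stfa3 and Stfa1 lie above every other inhibitor, and the WT 3 triangles often sit among the red symbols.

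The stefins were the most abundant of these inhibitors, and all 4 were lower in IL-33 KO in direction (median log2 fold change -0.80), with no gene passing the test and none without overlap. They made up 72.3% to 77.7% of the FPKM of all 63 inhibitors in each library, and Stfa3 alone made 64.6% to 72.8% of the stefin FPKM. The 4 genes lie within 1 cluster on chromosome 16 (mm10) and are close copies: over the whole coding sequence Stfa2 and Stfa2l1 are 96.4% identical, and the other pairs are 73.1% to 81.6% identical. The second coding exon, 102 bases long in each gene, is printed because it shows how much sequence the copies leave for telling their reads apart. Capitals mark the 23 positions at which the 4 genes do not all carry the same base, and the other 79 positions are the same in all 4. Each is given 5′ to 3′ on the gene's own strand, from the mm10 reference. Stfa1 (plus strand) is chr16:36280466-36280567, Stfa2 (minus strand) chr16:36405130-36405231, Stfa2l1 (plus strand) chr16:36159946-36160047 and Stfa3 (minus strand) chr16:36452151-36452252.
Stfa1: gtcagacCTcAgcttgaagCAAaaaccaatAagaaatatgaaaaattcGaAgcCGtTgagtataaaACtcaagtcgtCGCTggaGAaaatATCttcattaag
Stfa2: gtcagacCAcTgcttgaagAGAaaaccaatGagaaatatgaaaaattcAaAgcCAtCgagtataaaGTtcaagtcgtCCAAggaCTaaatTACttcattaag
Stfa2l1: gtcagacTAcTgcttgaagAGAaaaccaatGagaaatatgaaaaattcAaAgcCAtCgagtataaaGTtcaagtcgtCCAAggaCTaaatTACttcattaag
Stfa3: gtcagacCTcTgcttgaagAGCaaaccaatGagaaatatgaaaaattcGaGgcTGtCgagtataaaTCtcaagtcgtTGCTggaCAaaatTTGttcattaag
In this exon Stfa2 and Stfa2l1 differ at 1 base, whereas the other pairs differ at 13 to 18. Of all runs of 50 bases in the annotated transcripts (GENCODE M21), 24.6% of those of Stfa2l1 and 15.9% of those of Stfa2 occur in another gene as well, chiefly in each other. For Stfa1 the share was 22.5%, mostly with its neighbour BC100530, and for Stfa3 it was 0%. The sources used here do not say how the deposited counting divided such reads, so the split between Stfa2 and Stfa2l1, and between Stfa1 and BC100530, is uncertain.

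Stfa3, whose mouse family corresponds to human cystatin A, was measured at 559, 729 and 871 CPM (counts scaled to a common library total) in IL-33 KO and at 1830, 1620 and 688 CPM in WT. WT 1 and WT 2 were both above every IL-33 KO library, and WT 3 lay inside the IL-33 KO range. The log2 fold change was -0.94 ± 0.35 (SE, adjusted p = 0.521 by edgeR's quasi-likelihood test), -1.27 without WT 3 (adjusted p = 0.0601) and -0.68 without WT 1 (adjusted p = 0.741). Stfa1 showed the same order of libraries, with 242, 297 and 365 CPM in the knockout and 725, 448 and 252 CPM in WT (log2 fold change -0.66 ± 0.35, adjusted p = 0.607, and -0.21 without WT 1). Stfa2 was at 38.2, 55.6 and 80.9 CPM in the knockout and 165, 157 and 28.5 CPM in WT (-1.0 ± 0.57, adjusted p = 0.623), again with WT 3 the lowest of the 3 WT libraries. The Stfa2 value was -1.47 without WT 3 and -0.67 without WT 1. For all 3 genes the WT spread was the wider one: the SD of Stfa3 was 610 CPM in WT and 156 CPM in the knockout.

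Stfa2l1 did not follow the other stefins. It was at 12.6, 20.3 and 38.7 CPM in the knockout and at 84.1, 10.3 and 11 CPM in WT, so that 1 WT library was the highest of the 6 and the other two were the lowest. The log2 fold change of -0.55 ± 0.80 (adjusted p = 0.844, edgeR) rested on WT 1, and was 1.16 without it. Summing the 4 stefins removes the question of shared reads among them: the sum was 852, 1100 and 1360 CPM in the knockout and 2810, 2240 and 980 CPM in WT, with a log2 fold change of -0.86 ± 0.37 (adjusted p = 0.546, edgeR). The stefin median of -0.80 was -1.12 without WT 3 and -0.44 without WT 1.

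Serpinb genes fall into 2 clusters, and the one on chromosome 1 holds the serpins of squamous epithelium. Of its 12 genes 11 were tested (Serpinb3c had 24 counts in all 6 libraries), and 10 of the 11 were lower in IL-33 KO in direction. The median log2 fold change was -0.64, and -0.83 without WT 3 and -0.37 without WT 1. For 3 of the 11, all 3 IL-33 KO libraries lay below all 3 WT libraries in CPM, where 6.47% of all tested genes did so. Their summed FPKM was 323, 418 and 407 in IL-33 KO and 673, 576 and 422 in WT. In FPKM the lowest WT library thus exceeded the highest IL-33 KO library by little, and the means were 383 ± 52.2 and 557 ± 127 (SD, n = 3 each). In CPM the sums overlapped, at 711, 965 and 920 in IL-33 KO and 1570, 1350 and 925 in WT. There WT 3 lay below IL-33 KO 2.

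The 3 members without overlap were Serpinb10, Serpinb12 and Serpinb3a. Serpinb10 (bomapin, chr1:107529003-107549271), a serpin known from blood-forming cells, was measured at 6.54, 7.21 and 7.93 CPM in the knockout and 17.5, 16.1 and 12.4 CPM in WT. The spread within each genotype was small, with SDs of 0.698 and 2.64 CPM, and even WT 3 stood clear of the IL-33 KO libraries. Its log2 fold change of -1.09 ± 0.18 had the smallest adjusted p of the 36 members (0.187 by edgeR's quasi-likelihood test). The fold change ranged from -0.98 to -1.22 when 1 library at a time was left out, and the adjusted p from 0.0542 (without WT 3) to 0.728 (without WT 2). Serpinb10 shares 6.97% of its runs of 50 bases with the more abundant Serpinb2, whose listed position overlaps it by 6476 bases on the same strand.

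Serpinb12 (chr1:106934449-106957080), an inhibitor of trypsin-like proteases made in stratified epithelium, was at 31.9, 90.0 and 84.8 CPM in the knockout and at 201, 190 and 94.7 CPM in WT. IL-33 KO 1 was the lowest library by a wide margin, and WT 3 lay just above IL-33 KO 2. This gave a log2 fold change of -1.23 ± 0.41 (adjusted p = 0.487, edgeR), -1.51 without WT 3 and -0.89 without IL-33 KO 1. Serpinb3a (chr1:107045587-107052303) is a mouse counterpart of the human squamous cell carcinoma antigens, which inhibit cysteine and serine proteases. It was at 30.7, 23.3 and 16.7 CPM in the knockout and 84.6, 104 and 31.3 CPM in WT. WT 3 exceeded IL-33 KO 1 by a small amount in CPM. FPKM are scaled by library total and gene length but lack the further factor applied to CPM. In FPKM the order was turned, at 20.2 in WT 3 and 20.3 in IL-33 KO 1. The log2 fold change was -1.64 ± 0.42 (adjusted p = 0.389, edgeR), and without WT 3 it was -2.0 and passed the test (adjusted p = 0.0451). With any other library left out it ran from -1.30 (without WT 2) to -1.87 (without IL-33 KO 1), with adjusted p of 0.507 to 0.958. In the fit without WT 3, 24 genes (0.15%) passed among all those tested, and Serpinb3a was the only inhibitor among them.

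Serpinb3b, a near copy of Serpinb3a, was at 59.7, 80.5 and 96.3 CPM in the knockout and 167, 129 and 73.9 CPM in WT (log2 fold change -0.64 ± 0.30, adjusted p = 0.569, edgeR). Here the genotypes overlapped, since WT 3 lay below 2 IL-33 KO libraries, and the fold change was -0.36 without WT 1. The Serpinb3 copies are 86.2% to 93.1% identical over the coding sequence, and 12.2% to 15.0% of their runs of 50 bases occur elsewhere. Summed into 1 family, they gave 92.2, 104 and 114 CPM in the knockout and 254, 236 and 106 CPM in WT. The family's log2 fold change was -0.94 ± 0.30 (adjusted p = 0.471, edgeR), again with WT 3 inside the IL-33 KO range.

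Serpinb5 (maspin), an epithelial serpin with no known protease target, was the most abundant serpin in FPKM. It was at 399, 476 and 455 CPM in the knockout and 596, 599 and 452 CPM in WT (log2 fold change -0.31 ± 0.16, adjusted p = 0.606, edgeR). WT 1 and WT 2 were above the IL-33 KO libraries and WT 3 was within them. Serpinb2 (plasminogen activator inhibitor type 2), which blocks urokinase, was at 87.3, 148 and 157 CPM in the knockout and 328, 138 and 144 CPM in WT (-0.64 ± 0.37, adjusted p = 0.625, edgeR). WT 1 was the highest library and IL-33 KO 1 the lowest, and the other 4 lay between 138 and 157 CPM. Without WT 1 the fold change was -0.10, and without IL-33 KO 1 it was -0.41. The other tested genes of the cluster, Serpinb7, Serpinb8, Serpinb11, Serpinb3d and Serpinb13, had log2 fold changes of -0.85, -0.43, -0.37, -1.11 and 0.50, and all overlapped. Serpinb7 ran from -0.53 without IL-33 KO 1 to -1.66 without IL-33 KO 2, and Serpinb11 from -0.16 without WT 1 to -0.70 without WT 3. Serpinb3d was at -0.71 without WT 2 and -1.65 without IL-33 KO 1, and Serpinb13 at 0.09 without WT 2 and 1.02 without WT 3. Serpinb13 was the only gene of the cluster that was higher in IL-33 KO in direction, at a level of 0.306 to 1.48 CPM over the 6 libraries.

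Promoters of the tested members were looked up in RefSeq (GRCm38.p6, 250 bases before to 50 after the start), and 28 of the 36 matched. The AP-1 letters TGANTCA, which read the same on both strands, were found in 7 of the 10 matched Serpinb genes of chromosome 1: Serpinb2, Serpinb5, Serpinb7, Serpinb8, Serpinb10, Serpinb11 and Serpinb12. They were found in 0 of 8 Serpinb genes of chromosome 13, in 1 of 4 stefins (Stfa3), in 0 of 5 Wfdc genes or Slpi and in 0 of 1 Spink gene. Of all 27025 genes with promoters of the same length, 8.97% hold them in at least 1 promoter (7.81% of the 32851 promoters). The 3 tested Serpinb3 genes do not hold these letters in the window. The 100 bases before the start are printed for the 4 genes of the cluster whose match lies nearest to it and for Serpinb2, the neighbour whose position overlaps Serpinb10. Capitals mark the AP-1 letters, and where RefSeq lists more than 1 start the upstream one is used. All are on the plus strand of chromosome 1: Serpinb10 chr1:107528903-107529002, Serpinb12 chr1:106934349-106934448, Serpinb7 chr1:107422589-107422688, Serpinb8 chr1:107589906-107590005 and Serpinb2 chr1:107511323-107511422.
Serpinb10: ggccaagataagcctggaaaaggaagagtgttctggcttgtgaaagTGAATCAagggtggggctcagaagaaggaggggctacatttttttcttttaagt
Serpinb12: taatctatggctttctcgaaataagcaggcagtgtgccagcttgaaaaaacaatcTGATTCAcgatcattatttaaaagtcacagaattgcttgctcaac
Serpinb7: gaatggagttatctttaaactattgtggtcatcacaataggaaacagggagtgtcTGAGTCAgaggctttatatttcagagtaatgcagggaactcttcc
Serpinb8: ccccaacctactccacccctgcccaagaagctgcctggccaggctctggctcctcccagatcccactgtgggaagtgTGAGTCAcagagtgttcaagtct
Serpinb2: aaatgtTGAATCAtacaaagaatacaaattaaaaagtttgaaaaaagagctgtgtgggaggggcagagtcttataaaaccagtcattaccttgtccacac
The match begins 54 bases before the start in Serpinb10, 45 in Serpinb12 and in Serpinb7, 23 in Serpinb8 and 94 in Serpinb2. In none of the promoters did an AP-1 match overlap a match to another motif searched. A match describes the letters only and is not a bound site or a cause, and a missing match says nothing about the factor. The TATA letters TATAAA, searched on both strands, were found in 10 of the 28 genes (15.7% of all genes), 6 of them in the chromosome 1 cluster, among them Serpinb3a, Serpinb3b and Serpinb3d. The STAT letters TTCNNNGAA were found in 2 of the 28 genes, Serpinb2 and Serpinb6a, against 9.55% of all genes.

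Serpinb genes on chromosome 13 include the inhibitors of leukocyte granule proteases, and they did not share 1 direction. Of 16 listed, 4 had no count, 7 (these 4 included) fell under the filter, and of the 9 tested 5 were lower and 4 higher in IL-33 KO. The median log2 fold change was -0.23. It turned to 0.12 without WT 3 and was -0.15 without WT 1. Leaving out IL-33 KO 1 gave -0.05 and leaving out IL-33 KO 2 gave -0.64. Their summed FPKM was 93.9, 126 and 120 in IL-33 KO and 141, 126 and 142 in WT. Serpinb1a, an inhibitor of neutrophil elastase, cathepsin G and proteinase 3, was at 30.3, 39.9 and 38.8 CPM in the knockout and 57.0, 41.9 and 48.7 CPM in WT. All IL-33 KO libraries were below all WT libraries in CPM but not in FPKM, where IL-33 KO 2 was at 20.8 and WT 2 at 20.6. The resulting log2 fold change was -0.44 ± 0.16 (adjusted p = 0.513, edgeR).

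Serpinb6a, an inhibitor of cathepsin G, was the most abundant of this cluster, at 106, 137 and 152 CPM in the knockout and 168, 143 and 153 CPM in WT (log2 fold change -0.23 ± 0.16, adjusted p = 0.674, edgeR). The genotypes overlapped, the fold change was -0.10 without IL-33 KO 1 (and -0.35 when IL-33 KO 3 was left out), and its listed position also overlaps Nqo2 and Ripk1 on the other strand. Serpinb6c was at 21.7, 35.7 and 32.5 CPM in the knockout and 51.8, 53.7 and 31.8 CPM in WT (-0.61 ± 0.25, adjusted p = 0.539, edgeR), with WT 3 inside the IL-33 KO range. The Serpinb6 family summed to 133, 189 and 188 CPM in the knockout and 224, 203 and 202 CPM in WT (-0.30 ± 0.16, adjusted p = 0.607, edgeR), and as a sum the genotypes did not overlap. Serpinb9, the inhibitor of granzyme B, was at 9.87, 6.96 and 7.74 CPM in the knockout and 6.70, 5.81 and 10.2 CPM in WT. Its log2 fold change was 0.11, turned to -0.05 without IL-33 KO 1 or without WT 2, and was 0.39 without WT 3.

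Serpinb6d, Serpinb6e and Serpinb1c varied more between libraries than between genotypes. Serpinb6e was at 0.590, 6.92 and 0.0967 CPM in the knockout and at 0.0504, 0.480 and 3.51 CPM in WT. Serpinb1c was at 0.632, 2.83 and 0.193 CPM in the knockout and 0.101, 0.306 and 2.41 CPM in WT, and Serpinb6d at 3.25, 7.59 and 1.40 CPM against 2.67, 4.85 and 12.0 CPM. In all 3 genes IL-33 KO 2 and WT 3 were the highest libraries. The summed CPM of 10 sebaceous gland markers was highest in the same libraries, reaching 3210 CPM for IL-33 KO 2 and 3560 CPM for WT 3 against 1010 to 2020 in the other 4. The part of sebaceous tissue in these values was not tested. The log2 fold changes were 0.88 ± 1.37 for Serpinb6e, 0.35 ± 1.11 for Serpinb1c and -0.67 ± 0.67 for Serpinb6d, with adjusted p of 0.854, 0.933 and 0.763 (edgeR). Leaving out 1 library turned each of them: without IL-33 KO 2, Serpinb6e was at -1.95 and Serpinb1c at -1.18, and without WT 3 Serpinb6d was at 0.12. Serpinb1c was also below 0 without WT 1 (-0.15) and without WT 2 (-0.06), and was at 2.53 without WT 3.

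**Figure D2:**
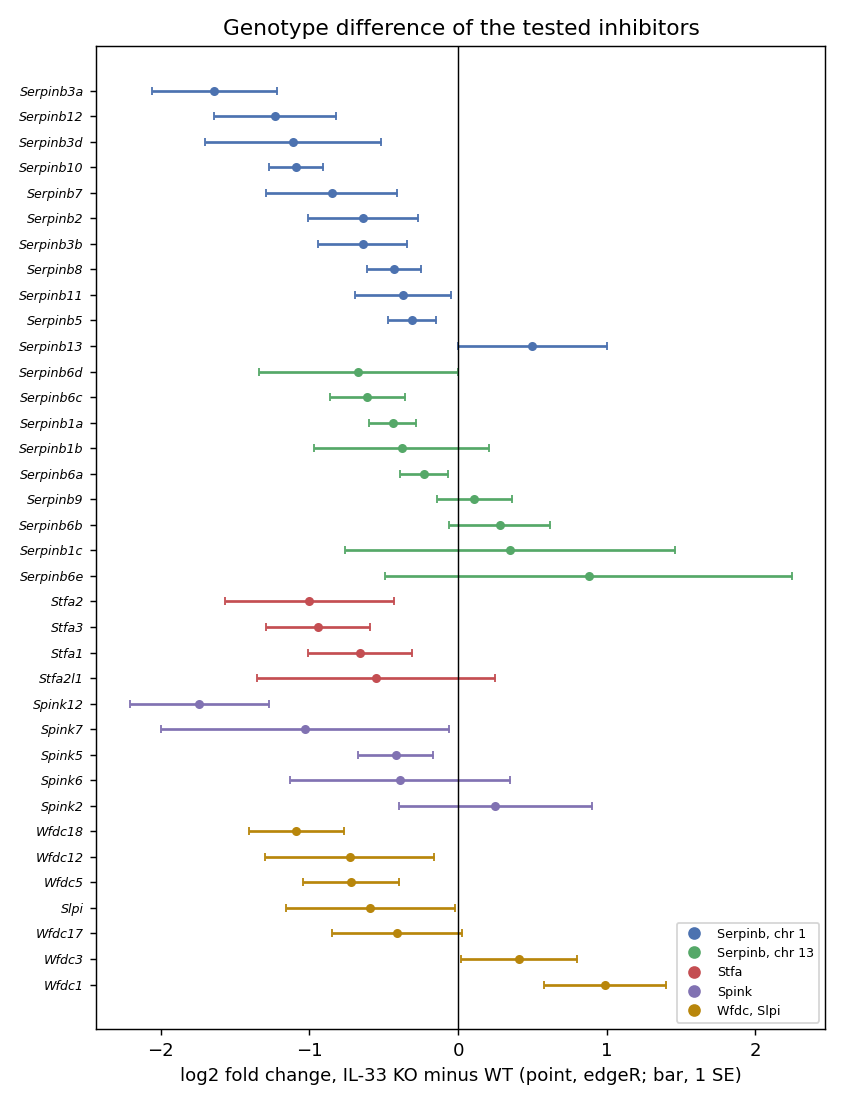
Log2 fold change (IL-33 KO minus WT, edgeR, point) with 1 SE (bar) for the 36 tested inhibitors, coloured by subfamily and ordered within it. Most points lie left of 0, from -1.74 for Spink12 to 0.99 for Wfdc1, and the widest bars belong to Serpinb6e and Serpinb1c.

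Among the Kazal-type genes 5 of 13 were tested (8 under the filter, 2 of these at 0 counts), and 4 of the 5 were lower in IL-33 KO in direction. Their median log2 fold change was -0.42, -0.67 without IL-33 KO 2 and -0.68 without WT 1. Spink5 encodes LEKTI, the inhibitor of epidermal kallikreins that is lost in Netherton syndrome. It was at 482, 800 and 531 CPM in the knockout and 993, 809 and 616 CPM in WT. IL-33 KO 2 lay above WT 3 and just below WT 2, and the log2 fold change was -0.42 ± 0.25 (adjusted p = 0.635, edgeR), -0.67 without IL-33 KO 2 and -0.24 without WT 1. Spink12 had the largest negative fold change of the 36 members. It was at 45.6, 41.5 and 51.5 CPM in the knockout and 125, 279 and 60.8 CPM in WT. The IL-33 KO libraries lay within a narrow band (SD 5.05 CPM), while the WT libraries spread widely (SD 112 CPM) without reaching down to it. The log2 fold change was -1.74 ± 0.47 (adjusted p = 0.408, edgeR), -2.13 without WT 3 (adjusted p = 0.0542) and -1.01 without WT 2, the library with the highest value.

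Spink7, an inhibitor known from oesophageal epithelium, was at 1.39, 2.91 and 13.8 CPM in the knockout and 17.7, 17.8 and 1.50 CPM in WT. IL-33 KO 3 stood with WT 1 and WT 2, and WT 3 with the other IL-33 KO libraries. The log2 fold change of -1.03 ± 0.97 (adjusted p = 0.750, edgeR) thus averaged over high and low libraries in both genotypes. It was -2.51 without IL-33 KO 3, -1.57 without WT 3, and -0.56 to -0.70 with any of the other 4 libraries left out. Its listed position lies inside Spink10 on the other strand, and Spink10 had 7 counts in all. Spink6 was at 1.52, 0.422 and 0.774 CPM in the knockout and 0.252, 0.917 and 2.33 CPM in WT (-0.39 ± 0.74, adjusted p = 0.881, edgeR), and turned to 0.60 without WT 3. The summed FPKM of the 13 genes was 167, 224 and 221 in IL-33 KO and 376, 487 and 211 in WT.

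The WAP genes were led by Slpi, the secretory leukocyte peptidase inhibitor, which blocks neutrophil elastase and cathepsin G. Of 18 genes (17 Wfdc and Slpi) 7 were tested, 11 fell under the filter and 6 of those had no count. Of the 7, 5 were lower and 2 higher in IL-33 KO in direction, with a median of -0.59 that turned to 0.26 without WT 1 and was -0.99 without WT 3 and -0.39 without IL-33 KO 1. Slpi was at 115, 117 and 212 CPM in the knockout and at 444, 144 and 80.2 CPM in WT. WT 1 was the highest and WT 3 the lowest of the 6 libraries. Its log2 fold change was -0.59 ± 0.57 (adjusted p = 0.758, edgeR), 0.41 without WT 1, -0.99 without WT 3 and -0.95 without IL-33 KO 3. Wfdc17, a WAP gene of activated macrophages, had the same order of its upper libraries, at 29.2, 25.3 and 53.5 CPM in the knockout and 83.1, 32.9 and 27.6 CPM in WT (-0.41 ± 0.44, adjusted p = 0.784, edgeR), and turned to 0.26 without WT 1.

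Slpi, Wfdc17 and Stfa2l1 were each highest in WT 1 and next highest in IL-33 KO 3. The mean of 13 tested neutrophil markers, centred on the 6 libraries (log2), was highest in the same libraries, at 1.00 in WT 1 and 0.40 in IL-33 KO 3 against -0.50 to -0.22 in the others. The summed CPM of the 14 markers was 1700 to 2790 in IL-33 KO and 1710 to 7480 in WT, most of it S100a8 and S100a9, which keratinocytes also make. Of the 13 tested markers, 9 were lower and 4 higher in IL-33 KO in direction. The defining neutrophil gene Ly6g stood at only 0.422, 0.590 and 0.339 CPM in the knockout and 1.66, 0.393 and 0.631 CPM in WT. Ly6g was thus highest in WT 1 but lowest in IL-33 KO 3, unlike the list mean. Mpo was under the filter. Retnlg, a resistin-like gene of neutrophils, was at 8.05, 12.3 and 28.6 CPM in the knockout and 54.6, 2.66 and 9.34 CPM in WT. In bulk tissue, fewer cells of a type and less RNA per cell cannot be told apart, and the part of neutrophils in these 3 genes was not tested.

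Wfdc18 was the WAP gene lower in IL-33 KO without overlap, at 7.38, 5.06 and 7.69 CPM in the knockout and 13.4, 20.7 and 8.91 CPM in WT (log2 fold change -1.09 ± 0.32, adjusted p = 0.440, edgeR). Wfdc1, which encodes a secreted WAP protein first known from prostate stroma, was the only member of the 36 that was higher in IL-33 KO without overlap, where 7.46% of all tested genes were. It was at 2.11, 1.56 and 1.45 CPM in the knockout and 0.504, 1.35 and 0.710 CPM in WT (0.99 ± 0.41, adjusted p = 0.547, edgeR). Wfdc5 was at 24.5, 35.8 and 33.6 CPM in the knockout and 60.8, 67.1 and 27.0 CPM in WT (-0.72 ± 0.32, adjusted p = 0.558, edgeR), with WT 3 inside the IL-33 KO range, and was -1.03 without WT 3. Its position overlaps an antisense gene. Wfdc12 and Wfdc3, the remaining tested genes, had log2 fold changes of -0.73 and 0.41 and overlapped. Wfdc12 ran from -0.13 without WT 1 to -1.30 without IL-33 KO 3. Wfdc3 ran from 0.01 without IL-33 KO 1 to 0.61 without IL-33 KO 3.

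Of the 36 tested members, 6 were lower and 1 higher in IL-33 KO without overlap, where 6.47% and 7.46% of all tested genes were. These 7 were Serpinb10, Serpinb12, Serpinb3a, Serpinb1a, Spink12, Wfdc18 and Wfdc1. For them the exact two-sided permutation test over libraries gave p = 0.1, the smallest value that 3 against 3 libraries allow. Any gene without overlap gives this value, so for these members the test only restates the lack of overlap. For the other 17 named members it gave 0.2 to 1.0.

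**Figure D3:**
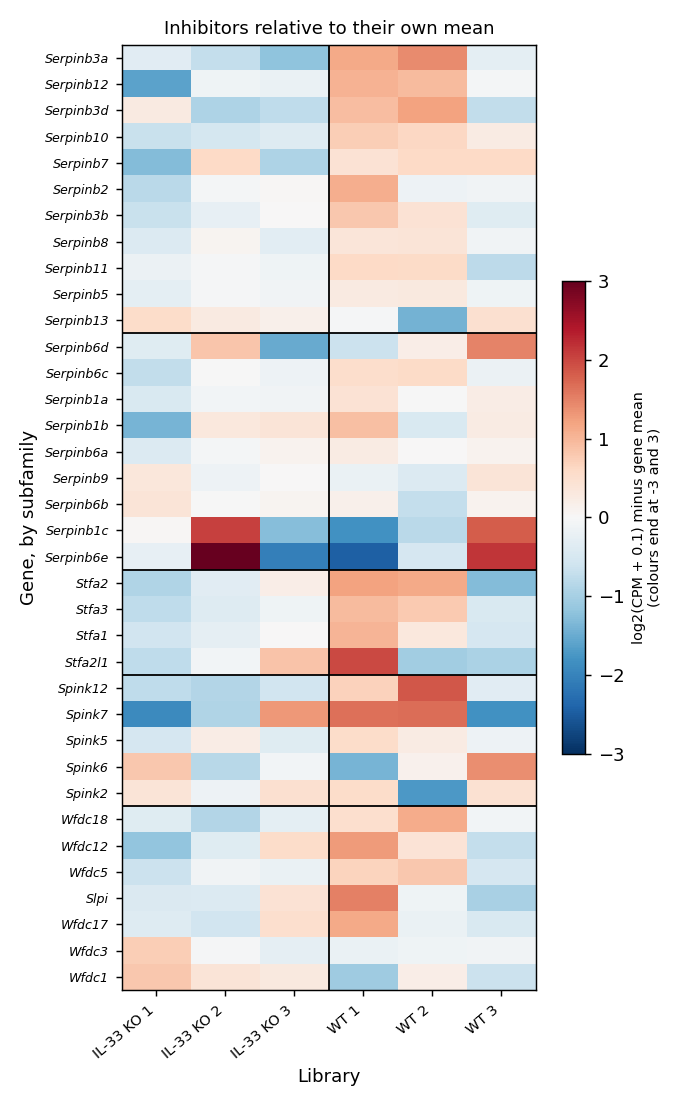
Each tested inhibitor (rows, by subfamily) in each library (columns), as log2(CPM + 0.1) minus the gene's mean over the 6 libraries, red above and blue below. WT 1 and WT 2 are red for most serpins of chromosome 1, for Stfa1, Stfa3 and for Spink5 and Spink12, WT 3 is paler or blue in many of these rows, and Serpinb6e and Serpinb1c are red in IL-33 KO 2 and WT 3.

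Keratinocyte markers were highest in WT 1 and WT 2 and lowest in IL-33 KO 1, as were some inhibitors, among them Stfa3, Stfa1, Serpinb12 and Serpinb3b. Other inhibitors did not share this order. Serpinb3a was lowest in IL-33 KO 3 (16.7 CPM) and Stfa2 in WT 3 (28.5 CPM), and Serpinb2 was higher in IL-33 KO 3 (157 CPM) than in WT 2 (138 CPM). Summed over 10 granular keratinocyte markers, such as Flg and Lor of the cornified envelope, the level was 9590, 23300 and 21000 CPM in the knockout and 26200, 34000 and 17400 CPM in WT. WT 3 lay below 2 IL-33 KO libraries, as it did for Stfa3 and Serpinb3b but not for Serpinb12. The 9 basal and hyperproliferative markers summed to 39300 to 59200 CPM in the knockout and 46800 to 86500 CPM in WT, with 8 of the 9 lower in direction. The 17 hair follicle markers summed to 23500, 12000 and 11300 CPM in the knockout and to 4080, 2930 and 6710 CPM in WT. IL-33 KO 1 was the highest and WT 2 the lowest library for them. The part of these shifts in the inhibitor values was not tested. None of the 13 neutrophil, 10 granular, 9 basal, 17 hair follicle and 9 sebaceous markers tested passed an adjusted p of 0.05 (edgeR).

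**Figure D4:**
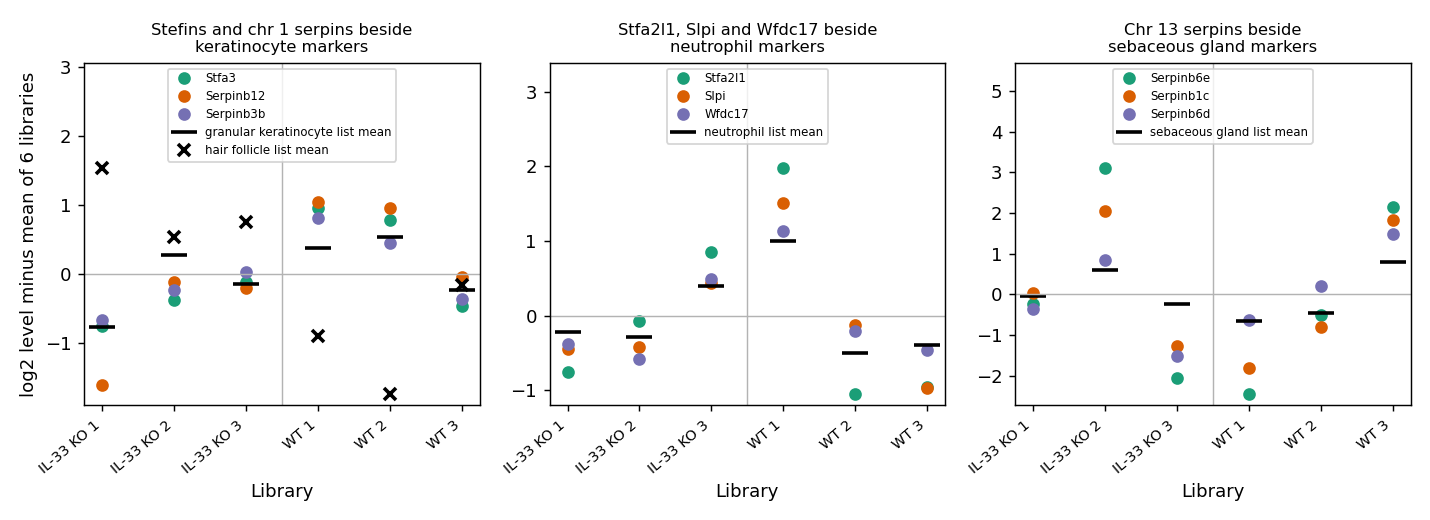
Selected inhibitors (coloured points, log2(CPM + 0.1)) and marker lists (black bars and crosses, mean log2 CPM with a prior count of 2) in each library, each minus its mean over the 6 libraries, with IL-33 KO left and WT right of the grey line. Slpi, Wfdc17, Stfa2l1 and the neutrophil list are highest in WT 1, and Serpinb6e, Serpinb1c, Serpinb6d and the sebaceous list in IL-33 KO 2 and WT 3.

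The proteases that these inhibitors act on were described from lists that are not members. Kallikrein-related peptidases include serine proteases of cornified layer shedding and targets of Spink5, though not every listed gene is one. They were lower in IL-33 KO in direction for 10 of 10 genes, their median log2 fold change being -0.78 and 0 of 10 passing the test. Klk5, a main LEKTI target, was at 75.8, 134 and 117 CPM in the knockout and 215, 243 and 107 CPM in WT. Klk12 was the only kallikrein without overlap, at 3.29, 4.05 and 3.82 CPM in the knockout and 16.6, 12.6 and 4.26 CPM in WT (-1.58 ± 0.44, adjusted p = 0.434, edgeR). Klk11 was the next by p (-0.88 ± 0.26, adjusted p = 0.444, edgeR). In WT 3 the sum over the list stood within the IL-33 KO range, with Klk6, Klk9, Klk10 and Klk13 below that range and Klk12 above it: the summed kallikrein CPM was 2480, 3170 and 2870 in IL-33 KO and 5370, 5100 and 2530 in WT.

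Cathepsins, the cysteine proteases that stefins block, together with other lysosomal proteases and legumain, were lower for 11 and higher for 3 of 14 genes, with a median of -0.15 and 0 passing. Ctsk (cathepsin K) was at 117, 102 and 124 CPM in the knockout and 151, 213 and 185 CPM in WT (log2 fold change -0.68 ± 0.16, adjusted p = 0.354, edgeR). Ctse (cathepsin E), an aspartic protease outside the reach of stefins, was at 44.7, 27.2 and 17 CPM in the knockout and 9.73, 9.83 and 13.5 CPM in WT (1.43 ± 0.33, adjusted p = 0.356, edgeR). Neither overlapped. Ctsb and Ctsl, classical stefin targets, had log2 fold changes of -0.02 and -0.34.

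Mast cell proteases were lower in direction for 5 of 5 genes (median -0.49). For 4 of them the genotypes did not overlap, where 6.47% of all tested genes were lower without overlap. Tpsab1 was at -1.63 ± 0.39 (adjusted p = 0.365, edgeR) on a level of 0.422 to 2.57 CPM. Cma1, the chymase, was at -0.49 ± 0.17 (adjusted p = 0.504, edgeR). Granzymes were higher in direction for 5 of 5 (median 0.42), with Gzma at 0.94 and Gzmb at 0.79. Gzmb is the target of Serpinb9. Of 4 neutrophil serine proteases, which include targets of Slpi and of Serpinb1a, 2 were tested, Prtn3 at -0.37 and Ctsg at 0.29. The 4 together reached only 0.801 to 1.45 CPM in the knockout and 0.806 to 1.22 CPM in WT. Of the 3 tested plasminogen activation genes, which include the target of Serpinb2, 3 were lower in direction (median -0.29). Plau, the urokinase gene, was at -0.06, and Plat at -0.29 ± 0.10 without overlap (adjusted p = 0.504, edgeR). Plaur, the urokinase receptor gene, was at 25, 52.3 and 73.2 CPM in the knockout and 150, 28.3 and 37.6 CPM in WT (-0.52 ± 0.63, adjusted p = 0.809, edgeR). None of these genes passed the test.

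Of 11 membrane-anchored and other epidermal proteases, 8 were lower and 3 higher in direction (median -0.17). The 2 of smallest p were higher in IL-33 KO without overlap. Capn12, a calpain of the hair follicle, was at 40.4, 29.1 and 24.3 CPM in the knockout and 9.88, 11.5 and 14.4 CPM in WT (log2 fold change 1.39 ± 0.22, adjusted p = 0.182, edgeR). St14 (matriptase) was at 167, 153 and 151 CPM in the knockout and 115, 114 and 110 CPM in WT (0.48 ± 0.11, adjusted p = 0.343, edgeR). Of 22 matched protease inhibitors of skin outside the 4 families, 15 were lower and 7 higher (median -0.27). Serpinf1 was at -0.62 ± 0.15 without overlap (adjusted p = 0.376, edgeR), and Cstb, the cytoplasmic cystatin B, at -0.67 ± 0.28 (adjusted p = 0.547, edgeR).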

How the data were processed

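RNA from 3 IL-33 KO and 3 WT samples of DNFB-treated back skin was sequenced. The authors deposited whole-number read counts and FPKM values for 35275 genes. The submitters' processing notes name STAR, RSEM and mm10 without versions. The treatment of strand and of multiply mapping reads was not given in the sources. The deposited FPKM match the counts scaled by gene length and library total, with a relative error of at most 2.782e-07. No value column was left unmapped (0 columns). Groups and replicate numbers came from the sample titles and genotype labels.

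Genotype was tested on the counts with edgeR 4.0.16 in R 4.3.3 (filterByExpr, TMM scaling, quasi-likelihood test, Benjamini-Hochberg adjustment, threshold 0.05) over 15720 genes, with all 6 libraries and genotype as the sole term. Totals of 20459574 to 24359612 counts and a biological coefficient of variation of 21.3% set the precision. CPM use the TMM-scaled totals. The code was tested on simulated data. No tested member passed the filter through 1 genotype only.

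Members were found by symbol. Named with every library's value were, per subfamily, the 4 of highest mean FPKM and the 3 of smallest p, and the 2 of largest fold change in each direction. From the protease and inhibitor lists the 2 of smallest p were named, some without every library's value. Serpinb9, Serpinb1c, Klk5, Ctsb, Ctsl, Plau, Gzma, Gzmb, Prtn3, Ctsg and the marker genes were added for their roles, after their values were seen. The members and lists were chosen with earlier results of these data known. Alternatives were other scalings, filters and tests (DESeq2 1.42.0, limma 3.58.1 on counts and on log2 FPKM), a replicate block, each library left out, and close copies summed. Replicate numbers did not pair the libraries and were not used in the reported fit. Shared 50-base runs and coding sequences came from GENCODE M21, and promoters from RefSeq. Identity is identical bases over alignment columns.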

Additional observations from a re-analysis of the deposited data

How the results depend on the processing

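At totals of 20459574 counts or more, 27 of the 63 members stayed under the count filter and were not tested, and with 3 libraries a genotype no exact test can go below 0.1. No member passed the threshold under the other scalings, filters, limma fits, summed copies or the replicate block; DESeq2 passed 3, and leaving out 1 library gave 0 to 1. Over all genes the count was 3, and 206 with DESeq2, 33 without a filter, 15 and 11 with limma on log2(FPKM + 1) and log2(FPKM + 0.1), 6 with the unfiltered FPKM, 11 with limma-voom, 5 with upper quartile scaling, total counts or the CPM filter, 2 with the replicate block, and 2 to 24 with 1 library left out (24 without WT 3, 10 without IL-33 KO 2). Of 441 alternative values of the 24 named members, 425 kept direction and side of the threshold, 4 passed it and 12 turned direction. Stfa2l1 turned to 0.06 (limma-voom), 0.09 (log2(FPKM + 1), filtered or not), 0.10 (log2(FPKM + 0.1)) and 0.17 (replicate block), and Spink6 to 0.01 (log2(FPKM + 0.1)). With 1 library left out, the log2 fold change ran from -1.09 to 1.16 for Stfa2l1, -0.99 to 0.60 for Spink6, -1.48 to 0.12 for Serpinb6d, -1.95 to 3.18 for Serpinb6e, -0.99 to 0.41 for Slpi and -0.81 to 0.26 for Wfdc17, and the median from -0.64 to 0.12 for Serpinb of chromosome 13, -0.99 to 0.26 for Wfdc and Slpi, and -0.76 to -0.24 for all members; with log2(FPKM + 0.1) the last was -0.35. The cause was not tested. Deviations of same-numbered libraries correlated at -0.264, -0.117 and -0.378 across genes, and no library correlated best with its own number, so the numbers do not pair the libraries; the paired fit (replicate block) passed 0 members. The FPKM filter left 30 members, so Serpinb6e and others under it have no value there.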

Other observations

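The stefin cluster on chromosome 16 holds further cystatin-type genes that the name rule did not take, and their values stand beside those of the Stfa genes. BC100530, which shares sequence with Stfa1, was at 418, 456 and 758 CPM in the knockout and 1480, 1140 and 362 CPM in WT (log2 fold change -0.87, adjusted p = 0.610, edgeR). Csta1 was at 224, 407 and 460 CPM in the knockout and 967, 560 and 290 CPM in WT (-0.74, adjusted p = 0.627, edgeR). In both, WT 1 and WT 2 were the 2 highest libraries and WT 3 lay within or below the IL-33 KO range. Gm5483 was at 23.4, 37.3 and 70.8 CPM in the knockout and 128, 18.3 and 19.7 CPM in WT (-0.33, adjusted p = 0.902, edgeR), which is the same order of libraries as for Stfa2l1. Gm5416, BC117090 and 2010005H15Rik had log2 fold changes of -0.71, -0.78 and -0.42. These genes were chosen for their position after their values were seen, and none passed the test.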
